A study of Rattus norvegicus with 88 samples.

Results

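rno-miR-451 and rno-miR-144, called miR-451 and miR-144 from here on, are a pair of small RNAs that red blood cells and their precursors are known for. Their levels were followed in rat liver from 2 to 104 weeks of age. Both were found by name in the probe annotation of the arrays, so that they make up 2 of the 677 miRNAs on the array and 2 of the 314 that were detected in at least 1 liver. Both were detected in all 88 livers, and no spot of either was saturated. The livers came from untreated Fischer 344 rats, 45 females and 43 males, killed at 9 ages, which were 2 weeks, 5, 6 and 8 weeks, 15 and 21 weeks, and 52, 78 and 104 weeks. There were 5 animals of each sex at each age, except for 4 males at 5 weeks and 4 males at 104 weeks. Each array held the RNA of 1 animal, taken from whole ground liver. The labels and methods used here do not say whether blood was flushed from the organ, so a liver's miR-451 and miR-144 may include those of blood left in it. In such bulk tissue, fewer cells of a type and less RNA per cell cannot be told apart.

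miRNAs are RNAs of about the length of a short primer that lower the output of messenger RNAs matching their seed, a stretch near the 5′ end. miR-144 and miR-451 are cut from neighbouring hairpins of 1 transcript that the erythroid factor GATA1 turns on, and miR-451 becomes very abundant as red cells mature. miR-451 is also known for an unusual maturation, in which the protein Ago2 cuts the hairpin without the enzyme Dicer. Liver itself makes blood cells before and for a time around birth.

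The mature sequences are shown because the seeds tell the pair apart and set miR-144 beside another liver miRNA. Capitals mark the seed, bases 2 to 8 from the 5′ end.
miR-451 (RefSeq miR-451-5p): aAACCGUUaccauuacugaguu
miR-144 (RefSeq miR-144-3p): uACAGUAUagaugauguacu
miR-144* (RefSeq miR-144-5p, the other strand of the miR-144 hairpin): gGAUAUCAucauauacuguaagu
In the rat RefSeq annotation on GRCr8 both hairpins lie on the plus strand of chromosome 10. That of miR-144 spans chr10:63459397-63459479 and that of miR-451 spans chr10:63459569-63459640, so that 89 bases part them. No other annotated gene overlaps either hairpin, and the nearest genes are Flot2 before and Eral1 after them. The hairpins are printed to show where the arms lie, with capitals for the mature RNAs that the array measured.
Mir144 hairpin: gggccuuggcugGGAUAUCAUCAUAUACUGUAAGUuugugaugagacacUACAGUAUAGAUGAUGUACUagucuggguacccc
Mir451a hairpin: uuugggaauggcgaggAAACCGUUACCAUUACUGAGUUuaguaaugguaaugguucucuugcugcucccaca
The mature miR-451 runs from base 17 to base 38 of its 72-base hairpin and so reaches across the middle of it, whereas miR-144 takes bases 50 to 69 of 83. miR-451 and miR-144 do not share a seed. Of the 282 detected miRNAs that could be matched to a RefSeq sequence, none shared bases 2 to 7 with miR-451, and miR-101a and miR-101b shared them with miR-144 but differed at base 8. Capitals mark bases 2 to 7 here.
miR-101a: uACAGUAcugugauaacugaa
miR-101b: uACAGUAcugugauagcugaa

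All levels below are normalized intensities, the total signal of a miRNA divided by the 75th percentile that the 314 miRNAs have on the same array, undetected ones included, so that 1 is the level of a miRNA at that percentile. Since miR-144 lay close to that percentile, it was itself the 75th percentile in 4 female livers, where its value is 1 by construction. Differences are differences of mean log2 levels from limma, with p-values adjusted by Benjamini-Hochberg over the 314 miRNAs. A miRNA was called where the adjusted p was under 0.05 and the difference at least 1.5-fold. The percentile ranged from 28.1 to 289 intensity units and the number of detected miRNAs from 134 to 255 per array. The arrays were scanned in 5 sessions of 1, 13, 30, 28 and 16 arrays, and all but the first held both sexes. The number of arrays sets the precision of every comparison.

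**Figure D1:**
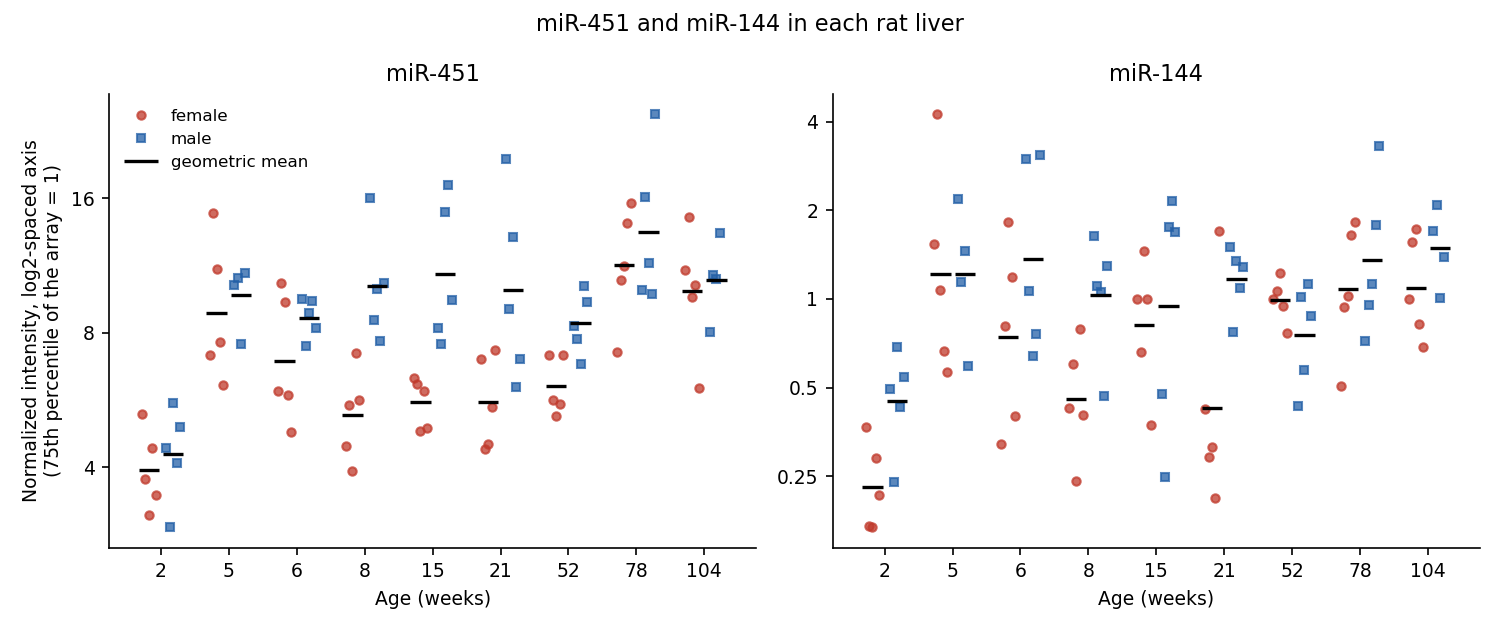
Normalized intensity of miR-451 (left) and miR-144 (right) in each liver, on log2-spaced axes, against age in weeks, with females as circles, males as squares and the geometric mean of each group as a bar. Males at 8 and 15 weeks lie above all females of the same age for miR-451, and within each sex the lowest group mean of both miRNAs is that at 2 weeks.

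In young adult animals miR-451 differed between the sexes. It was higher in male than in female livers at 8, 15 and 21 weeks, by 0.96, 0.96 and 0.83 on the log2 scale. At 8 weeks, the 5 females measured 3.93, 4.46, 5.52, 5.66 and 7.21, and the 5 males measured 7.69, 8.57, 10.1, 10.4 and 16.03. Every male was thus above every female at that age (difference 0.96 ± 0.25 SE, adjusted p = 0.0112, limma). At 15 weeks the females measured 4.82, 4.90, 5.92, 6.15 and 6.35, against 7.57, 8.22, 9.47, 14.9 and 17.2 in the males. Again no male overlapped a female, and the males were the more variable sex, with an SD of 4.31 against 0.718 in the females (difference 0.96 ± 0.25 SE, adjusted p = 0.0081, limma). At 21 weeks the females measured 4.41, 4.52, 5.45, 6.995 and 7.31, and the males 6.05, 6.99, 9.07, 13.1 and 19.6. Here the 2 lowest males lay within the range of the females (difference 0.83 ± 0.25 SE, adjusted p = 0.0262, limma). Few miRNAs were called higher in males at these ages, namely 0.637%, 3.18% and 2.55% of the 314, and miR-451 was among them at all 3 ages.

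At the other 6 ages miR-451 passed no test between the sexes, although the male mean was the higher of the pair at all 9 ages. That order turned at 2 and 78 weeks with no scaling and at 5 and 104 weeks with the percentile taken over all miRNAs of the array. Leaving out 1 animal also turned it, to as low as -0.09 at 104 weeks and -6.7e-05 at 5 weeks. The male minus female difference was 0.12 at 2 weeks, 0.13 at 5 weeks and 0.32 at 6 weeks, then 0.47 at 52 weeks, 0.25 at 78 weeks and 0.09 at 104 weeks, each with an SE between 0.25 and 0.27. Of all miRNAs, 18.8%, 0% and 0.637% were called in either direction at the first 3 of these ages, and 6.69%, 3.82% and 4.46% at the last 3. At 52 weeks the difference was 1.40 with the percentile over all miRNAs of the array and was then called (adjusted p = 0.0493, limma). Between 6 and 8 weeks the female mean went from 7.25 ± 2.45 (SD, n = 5) to 5.35 ± 1.26 and the male mean from 8.70 ± 0.863 to 10.5 ± 3.26, and neither change passed the test of the pair of ages. The change of the sex difference with age was tested between age classes, 2 weeks, 5 to 21 weeks and 52 to 104 weeks. The male change exceeded the female change by 0.52 ± 0.32 SE from the first class to the second (adjusted p = 0.277, limma) and fell short of it, at -0.37 ± 0.21, from the second to the third (adjusted p = 0.879). For these 2 tests, 21.3% and 1.27% of the 314 miRNAs were called.

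The sex difference at 8 to 21 weeks was present in each of the 4 scanning sessions that held both sexes at these ages. With these ages pooled, males exceeded females in miR-451 by 0.76 in session 2 (1 female, 4 males), by 0.83 in session 3 (6 and 4), by 1.35 in session 4 (6 and 4) and by 1.02 in session 5 (2 and 2). With the session as a block in the fit, the differences at 8, 15 and 21 weeks were 1.05, 1.02 and 0.91. The calls at 8 and 15 weeks did not rest on the percentile chosen for scaling, but all 3 were lost with no scaling at all, where the differences were 0.93, 0.01 and 0.24. With the percentile taken over all miRNAs of the array they were 2.35, 1.70 and 1.17, the last not called (adjusted p = 0.337, limma). Without scaling, the median difference of all 314 miRNAs between the sexes at 15 weeks was -0.67. The call at 21 weeks was lost in 5 of the 10 fits that left out 1 animal and that at 8 weeks in 2 of 10. These were at 21 weeks female replicates 2, 3 and 4 and male replicates 1 and 4, the lowest difference being 0.59, and at 8 weeks female replicate 4 and male replicate 1, the lowest being 0.80.

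**Figure D2:**
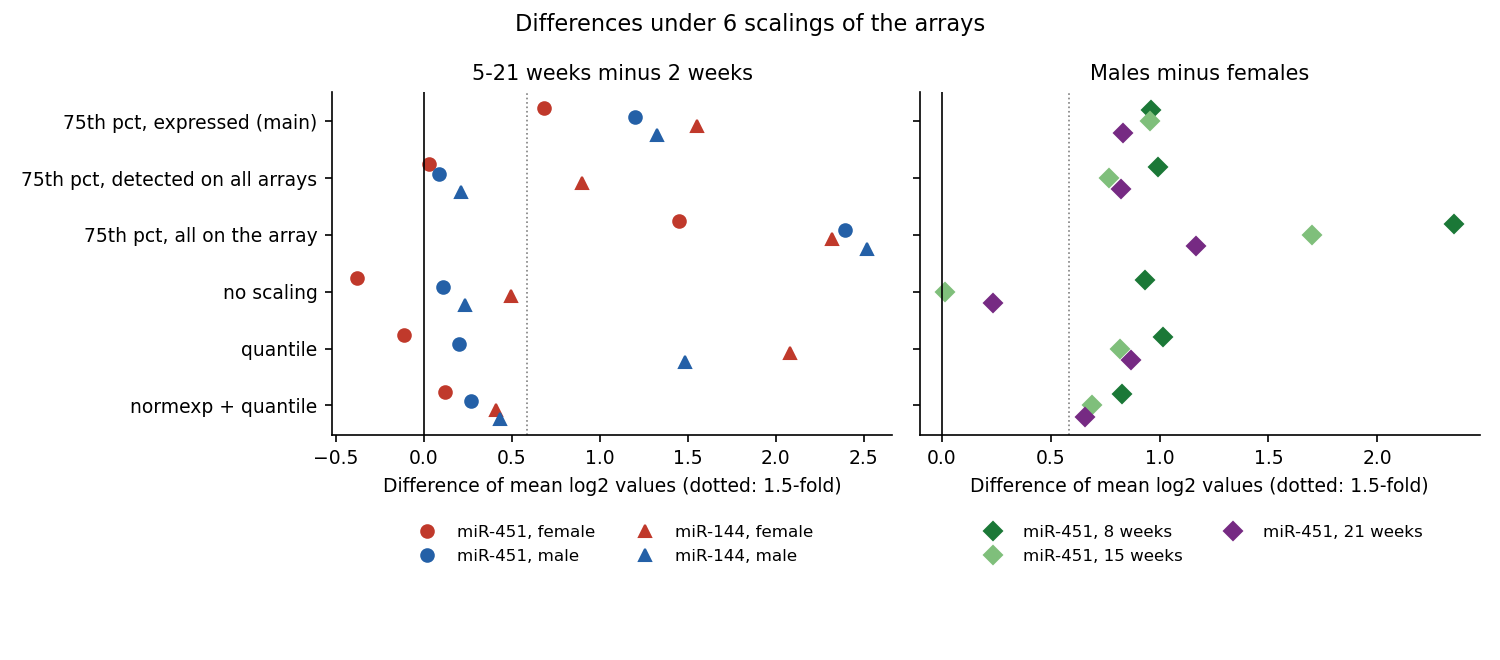
Differences of mean log2 values (x axis, with dotted lines at a 1.5-fold difference) under 6 ways of scaling the arrays (rows), for 5 to 21 weeks minus 2 weeks in each sex (left) and for males minus females in miR-451 (right). The sex differences lie above the dotted line in every row except at 15 and 21 weeks in the unscaled one, whereas the difference from 2 weeks spreads from -0.38 to 1.45 for miR-451 in females.

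miR-144 showed higher male means at 8 of the 9 ages but no called difference, and the SE at each age was larger than that of miR-451. At 5 weeks the order of the means turned under several alternatives, the difference being 0.00, and at 15 and 78 weeks it turned with no scaling and at 104 weeks with the percentile over all miRNAs of the array. At 52 weeks, the age with the higher female mean, the difference was -0.39 and lay between -0.68 and 0.54 under the other settings. At 21 weeks the 5 females measured 0.211, 0.291, 0.315, 0.423 and 1.70, and the 5 males measured 0.775, 1.09, 1.29, 1.35 and 1.51. The lower 4 females lay below every male and the fifth above all of them (difference 1.46 ± 0.51 SE, adjusted p = 0.0680, limma). Without that female, replicate 6, the difference was 1.96 and passed the test (adjusted p = 0.00652, limma). At 8 weeks the females measured 0.242, 0.404, 0.427, 0.601 and 0.791, against 0.467, 1.05, 1.11, 1.29 and 1.63 in the males. All but 1 male exceeded all females (difference 1.17 ± 0.51 SE, adjusted p = 0.205, limma). With the percentile over all miRNAs of the array this difference was 2.56 and was called (adjusted p = 0.00882, limma). At 15 weeks miR-144 passed no test, with 0.372, 0.660, 1, 1 and 1.45 in females and 0.248, 0.477, 1.69, 1.76 and 2.15 in males (difference 0.22 ± 0.51 SE, adjusted p = 1, limma). The lowest and the 3 highest values of that age were all of males. Without scaling the difference at 15 weeks was -0.73, on the other side of 0, and fits without 1 animal gave between -0.08 and 0.70.

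Within each sex, both miRNAs had their lowest mean at 2 weeks on the scale of the 75th percentile. miR-451 in the 5 females of 2 weeks measured 3.12, 3.47, 3.78, 4.42 and 5.27, and in the 25 females of 5 to 21 weeks the lowest, median and highest values were 3.93, 5.94 and 14.8. The older class overlapped the younger at its lower end (difference 0.68 ± 0.23 SE, adjusted p = 0.0113, limma). In males of 2 weeks it measured 2.94, 4.09, 4.42, 4.93 and 5.58, against 6.05, 9.45 and 19.6 as the lowest, median and highest of 24 males of 5 to 21 weeks. The classes did not overlap in males (difference 1.20 ± 0.21 SE, adjusted p = 4e-06, limma). miR-144 in females of 2 weeks measured 0.168, 0.170, 0.216, 0.290 and 0.367, against 0.211, 0.660 and 4.24 at 5 to 21 weeks. This was the larger change of the pair in females (difference 1.55 ± 0.42 SE, adjusted p = 0.0018, limma). In males miR-144 measured 0.238, 0.430, 0.495, 0.543 and 0.685 at 2 weeks, against 0.248, 1.21 and 3.07 at 5 to 21 weeks (difference 1.32 ± 0.39 SE, adjusted p = 0.0035, limma). At 5 to 21 weeks, 22.9% of the 314 miRNAs in females and 29.9% in males were called higher than at 2 weeks, so that a rise of this kind was common. From 2 weeks to 52 to 104 weeks the differences were 1.16 ± 0.24 SE for miR-451 and 2.19 ± 0.45 for miR-144 in females, and 1.31 ± 0.23 and 1.32 ± 0.42 in males, all called (limma), where 25.5% of the miRNAs in females and 28.7% in males were called higher.

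The rise from 2 weeks depended on what the arrays were scaled to. The 103 miRNAs detected in every liver averaged 1.09 ± 0.20 (SD) on the normalized log2 scale in the 10 livers of 2 weeks and 1.84 ± 0.11 in the 49 of 5 to 21 weeks. Their median difference was 0.52 in females and 0.99 in males, and 40 of them in females and 33 in males rose by more than miR-451 did. For miR-144 the corresponding counts were 9 and 24 of 103. When the 75th percentile was taken over those 103, the difference of miR-451 fell to 0.03 in females and 0.084 in males, and that of miR-144 to 0.90 and 0.21, and none was called. With no scaling the difference of miR-451 in females turned to -0.38, and with quantile normalization to -0.12, neither of them called. Both differences of miR-144 were called with quantile normalization, at 2.08 in females and 1.48 in males. The direction of miR-451 between 2 weeks and 5 to 21 weeks in females is therefore not settled by these arrays. From 2 weeks to 52 to 104 weeks its difference in females was above 0 under every setting tried, between 0.29 and 2.01, although not called under 4 of them.

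A comparison of miR-144 with miR-451 on the same array is free of the divisor of the array, but not of background correction or quantile normalization. In females the log2 level of miR-144 minus that of miR-451 averaged -4.09 ± 0.25 (SD, n = 5) at 2 weeks, -3.22 ± 0.80 (n = 25) at 5 to 21 weeks and -3.07 ± 0.50 (n = 15) at 52 to 104 weeks. miR-144 thus gained 0.87 on miR-451 from 2 weeks to 5 to 21 weeks (exact two-sided permutation p = 0.011, adjusted over 6 comparisons 0.0331) and 1.02 to 52 to 104 weeks (exact p = 0.000129, adjusted 0.000774). In the latter comparison, all 15 old females lay above all 5 young ones, the nearest pair almost touching at -3.84. The call for 5 to 21 weeks was lost in 4 of the 30 fits without 1 animal, each without 1 of the 2-week females of replicates 3, 4, 5 and 6, with an adjusted p of up to 0.132. Both gains were lost with normexp background correction, which added a constant to every signal and was followed by quantile normalization. They were then 0.29 and 0.14 (exact permutation test, adjusted p = 0.286 and 0.453), and with quantile normalization alone they were 2.20 and 2.39. In males the same quantity averaged -3.25 ± 0.23 at 2 weeks, -3.12 ± 0.82 at 5 to 21 weeks and -3.23 ± 0.61 at 52 to 104 weeks, and its changes of 0.13 and 0.02 from 2 weeks were not called (exact adjusted p = 0.889 and 0.955). With quantile normalization the male changes were 1.29 and 1.15 and were called (exact adjusted p = 0.00154 and 0.000688).

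**Figure D3:**
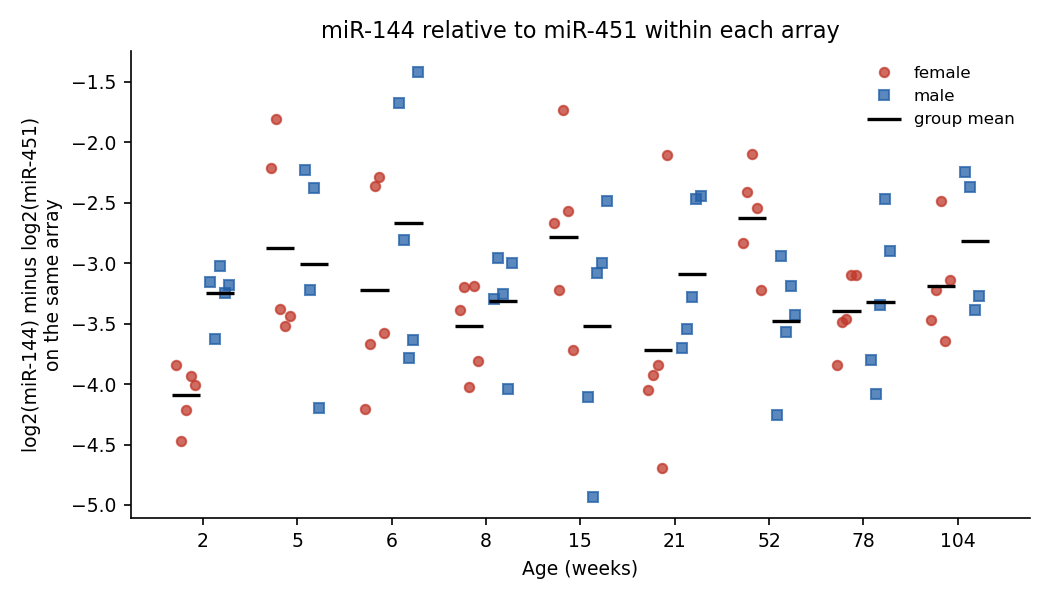
log2 level of miR-144 minus that of miR-451 on the same array (y axis) against age in weeks, 1 point per liver, females as circles, males as squares, and group means as bars. At 2 weeks all 5 females lie below all 5 males, and from 5 weeks on the sexes overlap.

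At 2 weeks the females ranged from -4.47 to -3.84 and the males from -3.62 to -3.03 in this quantity, with no overlap. This contrast was chosen after the values were seen. The male minus female difference of 0.85 had an exact permutation p of 0.0079, the smallest that 5 against 5 allows, and an adjusted p of 0.0714 over the 9 ages. At 52 weeks the difference was as large in the opposite direction, -0.85 (exact permutation p = 0.0238, adjusted 0.107). At 2 weeks the level of miR-144 was 0.97 ± 0.51 SE higher in males, against 0.12 ± 0.25 for miR-451, and neither was called (limma adjusted p = 0.169 and 0.896). With quantile normalization the difference of miR-144 at 2 weeks was 1.36 and was called (adjusted p = 0.0413, limma). Between the sexes at 2 weeks the 103 miRNAs detected in every liver had a median difference of -0.36, and none of them exceeded the difference of miR-144.

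Across all 9 ages, the F test of limma called an age effect for miR-451 in females (adjusted p = 6.6e-06) and in males (adjusted p = 0.000244) and for miR-144 in females (adjusted p = 0.000798), but not for miR-144 in males (adjusted p = 0.0948). An age effect was common, being called for 61.8% of the miRNAs in females and 56.1% in males. In order of mean log2 level, miR-451 in females ran from 2 weeks over 8, 15, 21, 52, 6 and 5 weeks to 104 and 78 weeks, with means of 4.01, 5.35, 5.63, 5.73, 6.14, 7.25, 9.36, 10.3 and 11.8. No neighbours in that order differed by the test. Of the 36 pairs of ages, 15 were called for miR-451 in females, where on average 13.7% of the miRNAs were called in a pair, with 5 of the 8 later ages above 2 weeks. Another 3 were falls from 5 weeks to 8, 15 and 21 weeks, by 0.76, 0.66 and 0.66 on the log2 scale. The remaining 7 set 78 weeks above 6, 8, 15 and 21 weeks and 104 weeks above 8, 15 and 21 weeks. On this scale miR-451 in females went from 9.36 ± 3.59 (SD, n = 5) at 5 weeks down to values between 5.35 and 5.73 at 8 to 21 weeks and to means of 11.8 and 10.3 at 78 and 104 weeks. The 15 called pairs became 9 with the replicate number as a block, 8 with the percentile over all miRNAs of the array and 2 with no scaling.

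In males, where on average 13.1% of the miRNAs were called in a pair, all 8 called pairs of miR-451 set a later age above 2 weeks, by between 0.97 and 1.65, and no pair of later ages was called. None of the 8 was called with the percentile over the 103 miRNAs, with no scaling, with quantile normalization or with normexp, and the age effect of miR-451 in males was not called under these either (adjusted p between 0.103 and 0.464, limma). The male means ran from 4.39 at 2 weeks over 8.49 at 52 weeks, 8.70 at 6 weeks, 9.82 at 5 weeks, 10.96 at 21 weeks, 10.5 at 8 weeks, 10.697 at 104 weeks and 11.5 at 15 weeks to 14.4 at 78 weeks, in order of mean log2 level. Only the first step, from 2 to 52 weeks, was called. miR-144 in females had 7 called pairs, 6 above 2 weeks and a fall of 1.51 from 5 to 21 weeks, and miR-144 in males had none. A pair of ages was called only where the age F test also passed. Without that condition miR-144 in males would have passed for 5, 6, 21, 78 and 104 weeks against 2 weeks, by between 1.37 and 1.72 (adjusted p between 0.00677 and 0.0274, limma). The females' means of miR-144 were 0.242 at 2 weeks and 1.61 ± 1.52 at 5 weeks, then 0.909 at 6, 0.493 at 8, 0.897 at 15 and 0.588 at 21 weeks, and 0.9996, 1.19 and 1.16 at 52, 78 and 104 weeks. The males' means of miR-144 after 2 weeks (0.478) lay between 0.803 at 52 weeks and 1.70 at 6 weeks, and no neighbours in order differed by the test in either sex.

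Late in life miR-451 rose in females. Against 5 to 21 weeks, it was higher at 78 weeks, where the 5 females measured 7.24, 10.5, 11.3, 14.1 and 15.6. All 5 lay above the median of 5.94 of the younger class, whose highest animal reached 14.8 (difference 0.85 ± 0.21 SE, adjusted p = 0.0105, limma). At this age 2.55% of the miRNAs were called higher, and 2.23%, 3.82% and 3.18% were called in either direction at 52, 78 and 104 weeks. At 104 weeks the females measured 6.04, 9.64, 10.3, 11.1 and 14.5 (difference 0.65 ± 0.21 SE, adjusted p = 0.0785, limma). With the rule of the study's methods, which uses the p before adjustment, both 78 and 104 weeks were called, as were 2.87% of the miRNAs as higher at each of them. At 52 weeks the females measured 5.23, 5.53, 5.65, 7.13 and 7.16 (difference -0.06 ± 0.21 SE, adjusted p = 1). The 52-week females were the tightest of the old groups and lay below all those of 78 weeks. The call at 78 weeks was lost under 4 other ways of scaling or background correction, where the differences were 0.58 with the percentile over the 103 miRNAs, 0.83 where it was taken over every miRNA on the array, 0.72 with quantile normalization and 0.55 with normexp (adjusted p between 0.0706 and 0.373, limma). The 4 scanning sessions that held both classes were compared for 78 and 104 weeks together. They gave 0.88 (4 younger females and 1 old), 0.29 (10 and 3), 1.07 (9 and 4) and 0.80 (2 and 2).

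In males the old ages were not called against 5 to 21 weeks for miR-451, with differences of -0.23 at 52 weeks, 0.45 at 78 weeks and 0.09 at 104 weeks, where 2.55%, 3.50% and 7.32% of the miRNAs were called. Without replicate 6 of the 78-week males the second was 0.23, and without replicate 5 of the 104-week males the third was -0.02. The 78-week males held the highest miR-451 of the study, with values of 9.80, 9.99, 11.5, 16.1 and 24.7. The animal at 24.7 also had the highest miR-144 of that group, 3.31. miR-144 was called at no old age in either sex, with differences of 0.55, 0.67 and 0.68 in females and -0.58, 0.26 and 0.40 in males at 52, 78 and 104 weeks. Fits without 1 animal gave -0.07 to 0.49 for miR-144 in males at 78 weeks and 0.24 to 0.59 at 104 weeks. As age classes, 52 to 104 weeks against 5 to 21 weeks gave 0.48 ± 0.15 SE for miR-451 in females, which passed the p threshold but was under 1.5-fold (adjusted p = 0.0342, limma), and 0.11 ± 0.15 in males (adjusted p = 0.857). In this comparison 4.46% of the miRNAs were called in females and 5.10% in males. In females 6 of the 103 miRNAs detected in every liver and in males 33 had a larger difference than miR-451.

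miR-144 and miR-451 moved together from animal to animal. Over the 40 females of 5 to 104 weeks the log2 levels correlated at r = 0.68 and rho = 0.63 (permutation p = 1e-05 and 2e-05, the former the smallest that the permutations drawn can give). Over the 38 males the values were r = 0.45 and rho = 0.42 (permutation p = 0.00516 and 0.00848, adjusted over 3 relations 0.00651 and 0.0103). Animals were permuted across ages, so that these p-values also take in differences between ages. With the mean of each age removed, r was 0.66 in females and 0.46 in males. Without the 2 animals farthest from the median of miR-451, and with the means of the ages kept, r was 0.61 in females and 0.35 in males. In females r was 0.67 in session 3 and 0.73 in session 4 (15 animals each), and the other sessions held too few females for a value. It was 0.69 and 0.60 in males of sessions 2 and 3 (7 and 12 animals) but 0.11 and 0.30 in those of sessions 4 and 5 (10 and 8 animals), so that it did not hold in each session. In the 10 livers of 2 weeks r was 0.81 (permutation p = 0.00651, adjusted 0.00651), and 0.96 once the means of the 2 sexes were removed. The pair of values on an array shares its RNA sample, its hybridization and its divisor.

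**Figure D4:**
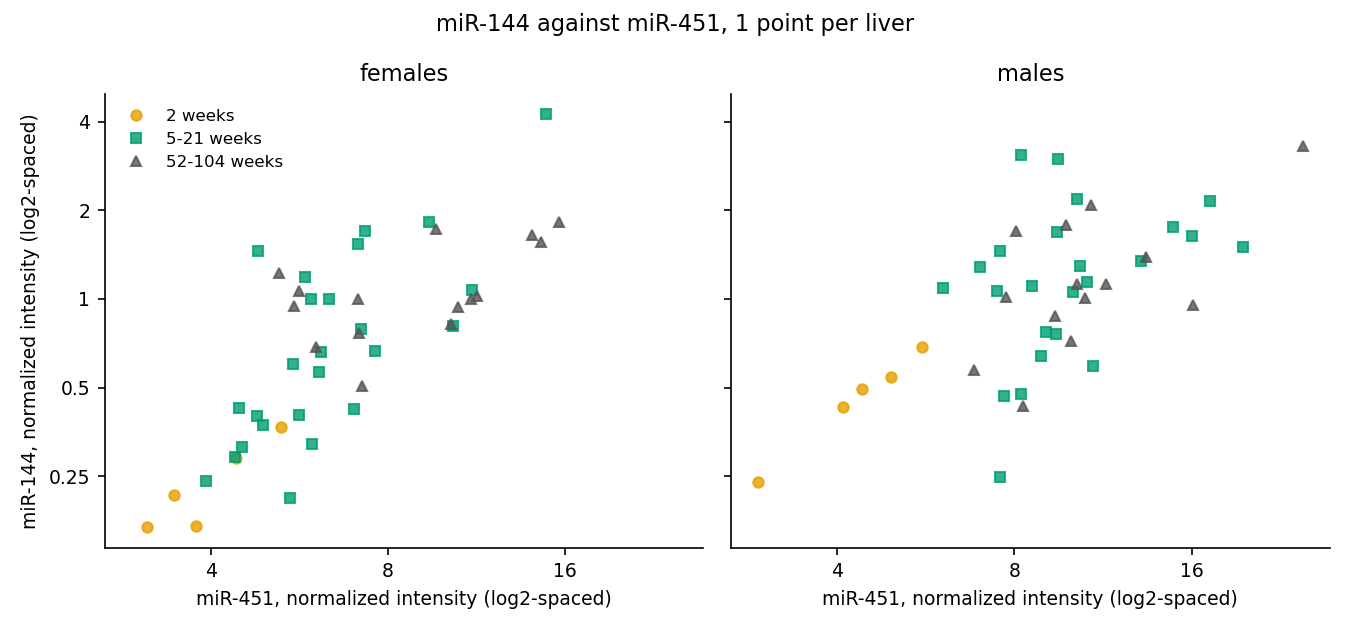
Normalized intensity of miR-144 (y axis) against that of miR-451 (x axis) in females (left) and males (right), 1 point per liver, both axes log2-spaced, with age classes as colours and shapes. The livers of 2 weeks sit at the low end of both axes and, in females, below the level of miR-144 of most others.

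Among the 141 miRNAs detected on at least 80 arrays, miR-144 was the most like miR-451. Likeness was taken as the correlation, over the 88 arrays, of the deviations from the mean of each age and sex group, which was 0.58 for miR-144, against a median of 0.02 over the 141. miR-122*, the other strand of the hepatocyte miR-122, followed at 0.53, then miR-352 at 0.50, miR-365 at 0.48 and miR-26b at 0.42. Without removing group means, miR-144 again ranked first (r = 0.73), while the other 4 ranked from 13 to 66. For miR-144 the closest were miR-33 at 0.78, which lies in a gene of cholesterol control, miR-142-5p of blood cells at 0.63, miR-347 at 0.63 and miR-29b at 0.61, with miR-451 the fifth at 0.58. Over all arrays miR-451 ranked first (r = 0.73) for miR-144. Base composition is shared too. G and C make up 30.0% of miR-144 and 36.4% of miR-451, against a median of 45.5% over the 120 of these miRNAs with a RefSeq sequence. Likeness to miR-144 correlated with the G and C share at -0.20, and likeness to miR-451 at -0.29. These correlations are descriptions over 1 set of arrays.

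The seed relatives of miR-144 were not called between the sexes at 8, 15 and 21 weeks, and none of their differences reached 1.5-fold. miR-101a and miR-101b, known as abundant liver miRNAs, differed by -0.33 and -0.23 at 8 weeks, -0.46 and -0.29 at 15 weeks and 0.01 and 0.03 at 21 weeks, males minus females, none of them called. From 2 weeks to 5 to 21 weeks miR-101a rose by 1.12 in females and 1.03 in males, both called, and miR-101b differed by 0.52 and 0.46, neither called.

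miR-144*, the passenger strand of miR-144, was near the limit of detection. It was detected in 33 of the 88 livers, at levels between 0.0369 and 0.231, and gives no more than a bound in the others. In females it was detected in 2 of 5 livers at 2 weeks, 6 of 25 at 5 to 21 weeks and 7 of 15 at 52 to 104 weeks, and in males in 2 of 5, 8 of 24 and 8 of 14. The share was thus highest in the oldest class of each sex, but miR-144* was called neither between these classes nor between the sexes at 8, 15 and 21 weeks. Brightness moved with its detection. It was seen on none of 13 arrays of session 2, 9 of 30 of session 3, 13 of 28 of session 4 and 11 of 16 of session 5, and the 75th percentile had a median of 83.2 intensity units where it was detected and 53.1 where it was not. Where miR-144* was detected, the median of miR-144 was 1.01, against 0.823 elsewhere, with wide overlap. The part of brightness in these counts was not tested.

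The probes of each miRNA gave differences of the same sign. For miR-451 the 2 probes gave male minus female differences of 0.99, 0.94 and 0.86 against 0.95, 0.96 and 0.82 at 8, 15 and 21 weeks, and the 10 replicate spots of a probe had a median CV of 3.27% and 2.94%. The probes of miR-144 had median CVs of 13.9% and 4.74%, and gave 1.05, 0.59 and 1.23 against 1.17, 0.32 and 1.21, so that they differed most at 15 weeks, where the total signal gave 0.22. Of the spots of the weaker probe, 69.9% were well above background, against 98.9% for the other, and all spots of both probes of miR-451 were.

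Among the red cell miRNAs on the array, miR-451 alone was called higher in males at 8, 15 and 21 weeks, where 0.637%, 3.18% and 2.55% of all miRNAs were, so that few calls among the others are what the background gives. A list of 15 miRNAs known from red cells and their precursors had 14 on the array, all of them detected, while miR-486, one of its defining members, is not on the array. Of those 14, miR-183 was called lower in males at 8 weeks, and it was detected on 29 arrays. The median difference of the 14 was 0.01, 0.17 and 0.19 at the 3 ages, against 0 for all 314 miRNAs. miR-16, the most general member of the list and present in many tissues, differed by 0.01, 0.13 and 0.26, none called. At 15 weeks miR-15b differed by 0.58, which passed the p threshold but was just under 1.5-fold (adjusted p = 0.0371, limma). miR-25 differed by 0.30 at that age, and neither was called. Of the erythroid list's members, miR-16, miR-15b, miR-92a, miR-25, miR-93 and miR-106b belong to clusters that dividing cells of many kinds express.

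Markers of other blood cells passed no test between the sexes at these ages. Of 7 listed, 6 were detected, and none was called at 8, 15 or 21 weeks, where 5.10%, 9.24% and 6.05% of all miRNAs were called in either direction. miR-223, of myeloid cells, differed by -0.05, 0.24 and 0.25, miR-142-3p, of blood cells in general, by -0.06, -0.26 and 0.11, and miR-150, of lymphocytes, by -0.09, -0.04 and -0.10. The largest difference in the list was that of miR-142-5p at 15 weeks, -0.77, opposite to miR-451 (adjusted p = 0.064, limma). The summed level of the 6 ranged from 14.3 to 21.0 in females and from 13.2 to 19.4 in males at 8 weeks, from 15.2 to 17.2 and from 12.8 to 17.3 at 15 weeks, and from 13.1 to 17.3 and from 13.3 to 17.1 at 21 weeks. The ranges overlapped at each age. The hepatocyte markers miR-122, miR-192 and miR-194 and the endothelial miR-126 and miR-126* were not called at these ages either. In the bile duct list, 1 of 5 members, miR-200b, was called higher in males at 8 and 15 weeks, by 1.03 and 1.54. The other 4 were not called, with miR-200a at 0.68 and 0.46, miR-429 at 0.46 and 1.10, miR-200c at 0.00 and -0.51, and miR-141 at -1.17 and -0.44 at these 2 ages. In the list of miRNAs that fall as red cells mature, 5 were detected, while miR-155 is not on the array and miR-222 was detected in no liver. Of the 5, miR-221 was called higher at 15 and 21 weeks, by 1.96 and 2.99, where 3.18% and 2.55% of all miRNAs were. No muscle or stellate marker was called. miR-1 and miR-133a, which define muscle, were detected on 28 and 8 of the 88 arrays. The part of these lists in the sex difference of miR-451 was not tested.

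**Figure D5:**
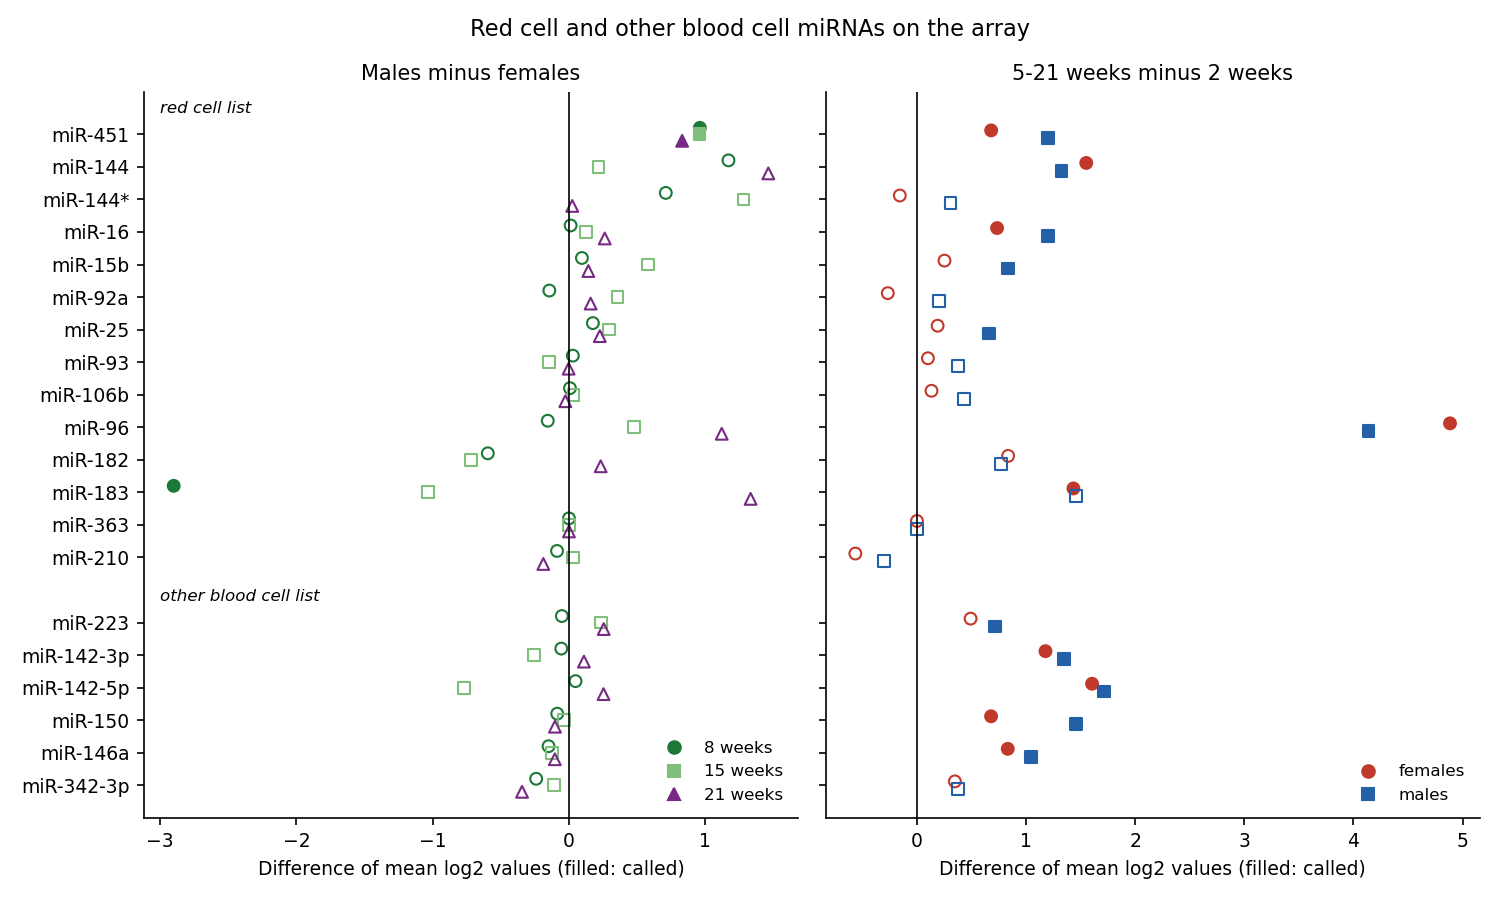
Differences of mean log2 values for the detected miRNAs of the red cell list and the other blood cell list, males minus females at 8, 15 and 21 weeks (left) and 5 to 21 weeks minus 2 weeks in each sex (right), with filled symbols where the difference was called. At left miR-451 is the only miRNA filled at all 3 ages, and at right most of the other blood cell list is filled.

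Between 2 weeks and 5 to 21 weeks, some of the listed miRNAs were called higher besides the pair. Of the 14 red cell miRNAs, 5 were called higher in females (miR-451, miR-144, miR-16, miR-96 and miR-183) and 6 in males (miR-451, miR-144, miR-16, miR-15b, miR-25 and miR-96), and none was called lower, where 22.9% and 29.9% of all miRNAs were called higher. Without the pair these were 3 and 4 of 12, a share near that of all miRNAs. The medians were 0.22 and 0.71, against 0.13 for all 314 miRNAs in each sex, and against 0.52 and 0.99 for the 103 detected in every liver. In females miR-210 and miR-92a of the red cell list differed by -0.56 and -0.27, passing the p threshold but under 1.5-fold (adjusted p = 0.00247 and 0.042, limma). In males miR-93 and miR-106b did so on the higher side, at 0.38 and 0.43. Of the 6 other blood cell miRNAs, 4 rose in females and 5 in males, set against the same shares of all miRNAs, with miR-142-3p at 1.18 and 1.35 and miR-150 at 0.68 and 1.46. Their summed level ranged from 6.87 to 8.64 at 2 weeks and from 9.73 to 21.0 at 5 to 21 weeks in females, and from 5.27 to 8.51 and from 11.9 to 19.4 in males. The 3 hepatocyte miRNAs, miR-122 among them at 0.61 and 1.19, were called higher in both sexes. Like those of the members, these differences move with the scaling of the arrays.

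In old females the members of the blood lists did not all go one way. At 78 weeks, miR-451 was the only red cell miRNA called higher, miR-96 was called lower, and none of the other blood cell miRNAs was called, their median difference being 0.20. With 2.55% of all miRNAs called higher and 3.82% in either direction at this age, a count this small is near the background. At 104 weeks miR-223 (0.60) and miR-142-3p (0.81) were called higher, as was miR-363, which was detected on 4 arrays in all, and miR-96 again lower, where 3.18% of all miRNAs were called in either direction. The summed level of the other blood cell miRNAs ranged from 14.8 to 38.6 in females of 52 to 104 weeks. miR-16 differed by -0.21 at 78 weeks and -0.16 at 104 weeks, neither called, on the side opposite to miR-451. On that side too, miR-92a differed by -0.52 and -0.47, passing the p threshold but under 1.5-fold (adjusted p = 0.00559 and 0.0121, limma). The red cell list as a whole had medians of -0.18 and 0.06 at these ages.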

How the data were processed

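Liver RNA of each animal was labelled and read on an Agilent rat miRNA array of a single colour. The authors deposited scanner files of linear intensity values, background-subtracted by Feature Extraction, and a table of ratios to the 75th percentile of each array. Here the total gene signal (0.1 where undetected) was read from the scanner files and divided by the value of rank 236 of the 314 detected miRNAs. On the log2 scale, undetected values took the lowest normalized value, 0.0120. These values matched the deposited ratio table within 0.01% for both members. Tests used limma 3.58.1 in R 4.3.3, tried first on simulated data, or permutation tests (scipy 1.17.1). Named besides the pair were miR-144*, the 5 miRNAs most like each member, seed relatives and defining members of the marker lists. Members and lists were chosen with earlier results of these data known. Alternatives covered scaling, floors, background, batches, tests and leaving out each array. The scanner files used here hold the median but not the mean spot signal, so normexp used the median. The normexp setting also added a constant to every signal and was followed by quantile normalization in place of the percentile.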

Additional observations from a re-analysis of the deposited data

Results flagged for a closer look

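Both members were examined for animals far from their group in 36 groups of 4 or 5 animals, and 2 were found, both for miR-144 in females. By chance about 1 in 20 groups has such an animal. At 21 weeks, replicate 6 measured 1.70 while the other 4 females lay between 0.211 and 0.423. At 5 weeks, replicate 2 measured 4.24 and the others 0.564 to 1.54, and that animal also had the highest miR-451 of its group, 14.8.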

How the results depend on the processing

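Of 932 values of 66 results under 18 other settings, 856 were counted as the same. That means the same side of the threshold or, for counts of calls, within 1.5-fold of the main count. Among the 856 were 30 values with no call that changed sign, and most values not the same came from the scaling. The settings for undetected values and the deposited table moved the members' own levels by no more than 0.01%. All values under these settings, 60 or 66 each, were the same. Differences here are on the log2 scale and in the order miR-451, miR-144. With the percentile over the 103 miRNAs detected in every liver, the differences of 5 to 21 weeks from 2 weeks were 0.028 and 0.90 in females and 0.084 and 0.21 in males. Those of 52 to 104 weeks from 2 weeks were then 0.33 for miR-451 in females and 0.20 and 0.22 in males. With no scaling the former were -0.38, the opposite direction, and 0.49 in females and 0.11 and 0.23 in males, and the latter 0.45 and 1.47 in females and 0.45 and 0.46 in males. With quantile normalization miR-451 gave -0.12, again opposite, and 0.20 for 5 to 21 weeks in females and males, and 0.29 and 0.27 for 52 to 104 weeks. With normexp they were 0.12 and 0.41 in females and 0.27 and 0.43 in males for 5 to 21 weeks, and 0.43 and 0.57 in females and 0.28 and 0.43 in males for 52 to 104 weeks. The cause was not tested.

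The adjusted p of the age F test (limma) of miR-451 in males was 0.236 with the percentile over these 103 miRNAs, 0.464 with no scaling, 0.103 with quantile normalization and 0.222 with normexp, each of which left 0 of the 36 pairs of ages called. That of miR-144 in females was 0.0905 with no scaling. That of miR-144 in males passed at 0.0285 with the percentile over all miRNAs, with 8 pairs called, and at 0.0486 with quantile normalization, with 7. The pairs called for miR-451 in females were 8 with the percentile over all miRNAs and 2 with no scaling, and for miR-144 in females 4 with the percentile over these 103 miRNAs, 0 with no scaling and 3 with normexp. The old ages called for miR-451 in females were 0 with either other percentile, with quantile normalization and with normexp, and 2 over the miRNAs detected on at least 44 arrays or with the unadjusted p. Between the sexes 0 ages were called for miR-451 with no scaling, and 1 for miR-144 with the percentile over all miRNAs (8 weeks), with quantile normalization (2 weeks) and over miRNAs detected on at least 44 arrays (21 weeks). The sex difference of miR-451 at 21 weeks was also not called by the methods' t-test or by limma on the arrays of that age (adjusted p = 0.224 and 0.287).

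Residuals of the same replicate number in other groups correlated at 0.053 on average, against -0.0076 for other numbers. That average runs mostly over animals of different ages. Of 33 male-female pairs of the same age and number, 17 correlated above 0.1. Whether the numbers pair animals is therefore not settled. With the replicate block, 9 pairs of ages were called for miR-451 in females, and no other call of the limma tests changed. The comparison of miR-144 with miR-451 on the same array was not run with that block. Leaving out 1 animal at a time gave the following ranges. For miR-451 in females the difference of 5 to 21 weeks from 2 weeks was 0.60 to 0.78, lost without 2-week female replicate 4, and the difference at 104 weeks was 0.51 to 0.83. The latter was called without 5-week female replicate 2 or 3 or 6-week female replicate 2, so that 1 to 2 old ages were called. The adjusted p of the age F test of miR-144 in males was 0.036 to 0.280 (limma), passing without 15-week male replicate 2, with 0 to 7 pairs of ages called. Between the sexes 0 to 1 ages were called for miR-144, the 1 without that male or without 21-week female replicate 6. miR-144 gained 0.78 to 0.93 on miR-451 in females from 2 weeks to 5 to 21 weeks. In alternatives chosen after seeing the data, this gain and that to 52 to 104 weeks were 0.29 and 0.14 with normexp, neither called, and in males they were 1.29 and 1.15 with quantile normalization, both called. With 4 or 5 animals a group, sex differences at 1 age had an SE of 0.25 to 0.27 for miR-451 and 0.51 to 0.54 for miR-144. miR-144 lay nearer to background, and miR-144* was mostly under it.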
